A study of Mus musculus with 9 samples.

Results

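Signals of 5 microRNAs (miRNAs), miR-125a-5p, miR-125b-5p, miR-99a, miR-99b and miR-100, were followed in mouse whole bone marrow after 5-fluorouracil (5-FU). They were chosen by name, as the miR-125 guide strands and the family of miR-99 and miR-100, encoded in 3 genomic clusters, and each matched 1 mouse-named probe among 582 miRNA probes. The treated marrow came from 3 female C57Bl6/J mice aged 6 weeks that had been injected into the peritoneum with 5-FU at 150 mg/kg and had their RNA taken at day 4. The untreated marrow came from 5 females of the same strain and age. Red cells were lysed before total RNA was isolated, and no stem cell or other fraction was sorted, so the signal is that of all remaining marrow cells together.

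5-FU, a pyrimidine analogue, is toxic to cells in cycle and leaves resting haematopoietic stem cells largely alive. A mature miRNA guides the silencing complex to messenger RNAs, mainly through the seed near its 5′ end, so miRNAs with 1 seed are grouped as a family. miR-125a and miR-125b are known from haematopoietic stem and progenitor cells, where miR-125a was found to raise stem cell number and excess miR-125b drives leukaemia in mice. miR-99a, miR-99b and miR-100 form a second family, for which mTOR is a known target. The clusters also hold let-7 hairpins, whose products restrain growth and proliferation.

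The mature sequences are shown because the families rest on the seed, which is bases 2 to 8 and is in capitals, and because the probes must tell close relatives apart. All are mouse sequences from RefSeq (GRCm38.p6), written 5′ to 3′. The last 4 are miR-351, which carries the miR-125 seed, and the let-7 products of the clusters.
miR-125a-5p: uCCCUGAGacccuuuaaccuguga
miR-125b-5p: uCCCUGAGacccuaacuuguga
miR-99a: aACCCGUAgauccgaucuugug
miR-99b: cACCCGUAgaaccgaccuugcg
miR-100: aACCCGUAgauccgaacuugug
miR-351: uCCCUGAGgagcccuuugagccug
let-7a: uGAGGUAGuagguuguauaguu
let-7c: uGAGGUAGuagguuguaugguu
let-7e: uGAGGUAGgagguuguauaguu

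miR-125a-5p has 24 bases and miR-125b-5p has 22, and their first 13 bases are identical. miR-351 shares only the first 8 bases with both. miR-99a and miR-100 differ by 1 substitution, U16A, where the base of miR-99a is given first, then the position counted from 1 at the 5′ end, then the base of miR-100. miR-99b differs from miR-99a by 4 substitutions, A1C, U11A, U16C and U21C, with the base of miR-99a first. Whether the beads for miR-99a and miR-100 told these sequences apart was not tested.

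The most compact cluster holds the Mir99b, Mirlet7e and Mir125a hairpins within 692 bases at chr17:17830188-17830879 (GRCm38.p6), inside the annotated span of the protein-coding gene Spaca6. The second holds Mir99a, Mirlet7c-1 and Mir125b-2 over 47.4 kb at chr16:77598936-77646343. The annotated long noncoding RNA Mir99ahg ends before that interval, at 77558428. The third holds Mir100, Mirlet7a-2 and Mir125b-1 over 50.6 kb at chr9:41531425-41582002, inside the long noncoding RNA Mir100hg. Mir125b-1 and Mir125b-2 give the same mature sequence, so the miR-125b-5p signal cannot be assigned to chromosome 9 or 16. miR-125a-5p, miR-99a, miR-99b and miR-100 each have 1 locus here.

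The signals are normalized log2 bead fluorescence from 9 arrays run in 2 batches, with 5-FU animal 1 on an array in each batch. The arrays of that animal were averaged, 5-FU animals 2 and 3 were run in batch 2 only, and all 5 untreated animals were run in batch 1 only. Batch was thus separable from treatment through 1 animal alone. Raw fluorescence totals were 382840 to 590792 on 5-FU arrays and 336483 to 679697 on untreated arrays. All 5 miRNAs lay above the higher water well on every array, the closest being miR-125a-5p at 5.26 times that well. A separate background well labelled for batch 2 was not used. In the untreated group the deposited normalized columns matched raw columns of a differently numbered untreated animal, which leaves the groups as they are. In batch 2 the normalized values carried a term that differed between probes and was nearly the same on the 3 arrays, with an SD of 0.51 log2 over 156 probes. That term was -0.24 for miR-125a-5p, -0.13 for miR-125b-5p, -0.14 for miR-99a, -0.35 for miR-99b and -0.69 for miR-100, and none of the sources used here states where it came from.

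Of the 5 miRNAs, miR-125a-5p alone passed the test on the normalized values, and it was lower after 5-FU. Among all 379 probes tested, 40.6% passed in either direction and 25.1% were lower, by limma with a Benjamini-Hochberg adjusted p under 0.05. The median change of the 5 miRNAs was -0.28 on the log2 scale, beside -0.16 over all tested probes. All 5 were among the 158 probes above log2 7 in at least 3 animals, whose median change was -0.32. Of those 158 probes, 88 passed and 70 were lower, so a lower call was more common among bright probes. In whole marrow, fewer cells of a type and less of the RNA per cell cannot be told apart.

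miR-125a-5p had log2 signals of 8.51, 8.35 and 8.42 in 5-FU animals 1 to 3, against 8.94, 8.82, 9.03, 8.97 and 8.93 in untreated animals 1 to 5. All 3 treated animals lay below all 5 untreated ones, as was so for 25.6% of the probes tested, and groups were apart in either direction for 49.9% of them. The means were 8.42 ± 0.08 in 5-FU marrow and 8.94 ± 0.07 in untreated marrow (SD, n = 3 and 5 animals). The log2 difference was -0.51 (SE 0.06, 95% interval -0.65 to -0.38, limma adjusted p = 0.00104), a signal 0.701 times that of untreated marrow. The authors' deposited table gave this miRNA a false discovery rate of 0.00077. Their 5-FU mean, 8.44, is that over all 5-FU arrays, with both arrays of animal 1 counted separately. That rate thus rests on another set of values than the test here. With batch as a term over the 9 arrays the difference was -0.45 (limma adjusted p = 0.0217), in a fit that called 9.76% of probes. All untreated arrays were in batch 1, so for any probe this difference is that of 1 treated array from the untreated mean. That array is the batch 1 array of 5-FU animal 1, and the fit took both arrays of the animal as separate samples.

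The fall of miR-125a-5p was not found when the arrays were scaled from raw fluorescence. With raw values set to an equal total per array, miR-125a-5p had 9.23 ± 0.12 in 5-FU marrow and 9.24 ± 0.10 in untreated marrow, a log2 difference of -0.01 (limma adjusted p = 0.975). In those values the batch 2 array of 5-FU animal 1 lay 0.65 above the batch 1 array of the same animal. Within batch 1 alone, that animal's array lay -0.46 from the untreated mean (limma adjusted p = 0.321). In the normalized values the batch 2 array of that animal lay only 0.03 above its batch 1 array, beside the fall of 0.51 there. The part of the gap of 0.65 in the raw result was not tested. A test on batch 1 arrays sets 1 treated array against 5 untreated ones and assumes that it varies as they do.

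miR-125b-5p, the relative with the same seed, had log2 signals of 10.56, 10.21 and 10.65 in 5-FU animals 1 to 3, against 10.58, 10.42, 10.64, 10.83 and 10.85 in untreated animals 1 to 5. The groups overlapped, with the lowest value in 5-FU animal 2 and the highest in untreated animal 5. The difference was -0.19 (SE 0.14, 95% interval -0.52 to 0.14, limma adjusted p = 0.319). The interval holds both no difference and a fall as large as that of miR-125a-5p.

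miR-99b, the neighbour of miR-125a on chromosome 17, had log2 signals of 8.63, 8.39 and 8.40 in 5-FU animals 1 to 3, against 7.39, 8.10, 8.16, 8.40 and 8.40 in untreated animals 1 to 5. Untreated animal 1 was far below the rest, and untreated animals 4 and 5 lay level with the lower treated animals. The means were 8.47 ± 0.14 in 5-FU marrow and 8.09 ± 0.41 in untreated marrow, a difference of 0.38 (SE 0.24, 95% interval -0.19 to 0.95, limma adjusted p = 0.249). Without untreated animal 1 the difference was 0.21.

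From raw fluorescence, miR-99b was higher after 5-FU. With equal raw totals it had 9.37 ± 0.08 in 5-FU marrow, with a range of 9.28 to 9.41, and 8.39 ± 0.42 in untreated marrow, with a range of 7.67 to 8.69. The groups did not overlap, and the difference of 0.98 passed the test (SE 0.24, limma adjusted p = 0.0195), beside 17.3% of the 330 probes tested on that scale. The share of probes with groups apart was not computed there, and on the normalized values it was 49.9%. The batch 2 array of 5-FU animal 1 lay 0.45 above its batch 1 array there. The batch 1 array alone lay 0.66 above the untreated mean with equal raw totals (limma adjusted p = 0.460), and 0.68 above it in the normalized values (limma adjusted p = 0.592).

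miR-99a had log2 signals of 9.07, 8.79 and 9.05 in 5-FU animals 1 to 3, against 8.77, 9.04, 9.36, 9.57 and 9.72 in untreated animals 1 to 5. miR-100 had 8.70, 8.30 and 8.49 in the 5-FU animals, against 8.27, 8.55, 8.76, 9.05 and 9.26 in the untreated animals. For both, the treated animals lay among the untreated ones, whose own values were spread over 0.95 log2 for miR-99a and 0.99 log2 for miR-100. The differences were -0.32 for miR-99a (SE 0.23, 95% interval -0.86 to 0.22, limma adjusted p = 0.306) and -0.28 for miR-100 (SE 0.24, 95% interval -0.84 to 0.28, limma adjusted p = 0.377). For miR-100 the sign turned with batch as a term, to 0.10, and with equal raw totals, to 0.60 (limma adjusted p = 0.109). The batch 2 term of miR-100, -0.69, was the largest of the 5.

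The untreated animals did not vary alike across the 5 miRNAs. miR-99a, miR-99b and miR-100 were lowest in untreated animal 1 and highest in untreated animal 5, over 0.95 to 1.01 log2. miR-125a-5p varied over 0.20 log2 in the same animals. The summed signal of 4 miRNAs that mark stromal and mesenchymal cells (miR-143, miR-145, miR-199a-5p and miR-214) was also lowest in untreated animal 1, at log2 10.50, and highest in untreated animal 5, at log2 11.34. The endothelial marker miR-126-3p was likewise lowest in untreated animal 1, at 10.57, and highest in untreated animal 5, at 11.20. The lymphocyte, erythroid, skeletal muscle, granulocyte and monocyte, and all-blood-cell markers given below did not share that order. The summed skeletal muscle markers, for example, were lowest in untreated animal 2, at log2 12.23, and highest in untreated animal 3, at log2 13.24. The part of any of these cells in the spread was not tested.

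**Figure D1:**
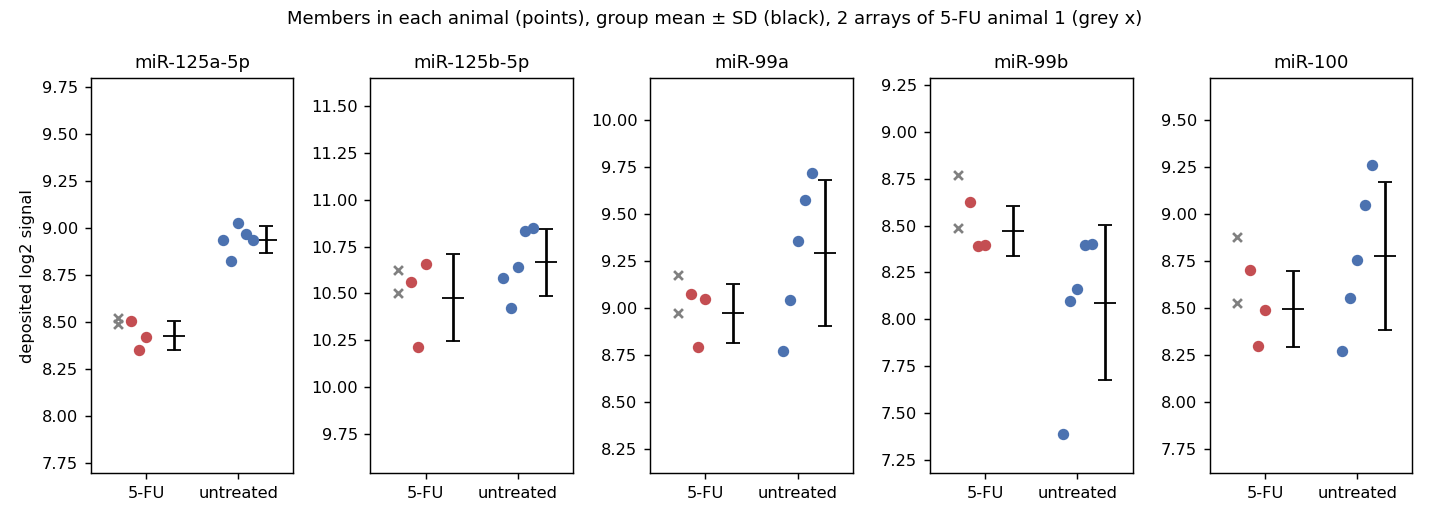
Normalized log2 signal (vertical axis) of the 5 miRNAs in each animal, with 5-FU animals left of untreated animals, black marks for the mean ± SD and grey crosses for the arrays of 5-FU animal 1. For miR-125a-5p the treated animals, at 8.35 to 8.51, lie below the untreated animals, at 8.82 to 9.03, and for the other 4 miRNAs the groups overlap.

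Differences between 2 miRNAs within an animal remove any scaling factor common to the array, so 6 such differences were compared between the groups. The difference itself holds the brightness of each probe and has no meaning as a ratio of molecules, and only its shift between the groups was read. Each was tested by an exact two-sided permutation test over all 56 splits of the 8 animals, in which the smallest p that can be reached is 0.0357. After Benjamini-Hochberg adjustment over the 6 differences, none passed 0.05. Those at the smallest p were adjusted to 0.107, and a single difference with fully separate groups could not pass with these animals. The lack of a pass therefore does not show that a shift was absent. Groups lay apart for 49.9% of single probes, and the share for differences of other probe pairs was not computed.

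The widest shift was between neighbours on chromosome 17. miR-125a-5p minus miR-99b was -0.12, -0.04 and 0.02 in 5-FU animals 1 to 3, against 1.55, 0.72, 0.86, 0.57 and 0.53 in untreated animals 1 to 5. No treated animal reached the lowest untreated one. The means were -0.05 ± 0.07 in 5-FU marrow and 0.85 ± 0.41 in untreated marrow, a shift of -0.89 (exact permutation p = 0.0357, adjusted over the 6 to 0.107). The shift was -0.99 with equal raw totals, -1.08 after quantile normalization of raw values and -1.13 on batch 1 arrays alone. Its direction was the same in all 14 alternatives run. Leaving out 1 animal could not reverse it, since the groups did not overlap, and a factor common to an array cancels in it. That count is therefore no separate support.

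The difference between the family members miR-99b and miR-99a was smaller in size in each of the 3 5-FU animals than in any untreated animal, although its shift did not pass after adjustment. miR-99b minus miR-99a was -0.45, -0.40 and -0.65 in 5-FU animals 1 to 3, against -1.38, -0.94, -1.19, -1.18 and -1.32 in untreated animals 1 to 5. All treated animals lay above all untreated ones, with a shift of 0.70 (exact permutation p = 0.0357, adjusted over the 6 to 0.107). It was 0.87 with equal raw totals, 0.96 after quantile normalization and 0.80 on batch 1 arrays alone.

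miR-125a-5p minus miR-125b-5p averaged -2.05 ± 0.19 in 5-FU marrow and -1.73 ± 0.15 in untreated marrow, a shift of -0.32 with overlap (exact permutation p = 0.107, adjusted to 0.214). The groups did not overlap after quantile normalization, with a shift of -0.38 (exact permutation p = 0.0357, adjusted to 0.0536), and the batch 1 array of 5-FU animal 1 lay below all untreated animals, at -0.41 from their mean. miR-125b-5p minus miR-99a, which share the chromosome 16 cluster, shifted by 0.13 (exact permutation p = 0.464). Without untreated animal 1 that shift was 0.24 and the groups did not overlap (exact permutation p = 0.0571, the smallest that 3 against 4 animals allow). miR-125b-5p minus miR-100, which share the chromosome 9 cluster, shifted by 0.09 (exact permutation p = 0.679) and by -0.37 with equal raw totals. On the normalized values of all 8 animals the groups overlapped for each of these 3 differences.

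miR-100 minus miR-99a, whose sequences differ by 1 base, averaged -0.47 ± 0.09 in 5-FU marrow and -0.51 ± 0.05 in untreated marrow, a shift of 0.04 (exact permutation p = 0.464). The batch 1 array of 5-FU animal 1 lay 0.22 above the untreated mean and above every untreated animal. The shift was 0.49 with equal raw totals and 0.53 after quantile normalization, both at the smallest exact p, 0.0357. The batch 2 terms of the 2 probes differed, at -0.69 for miR-100 and -0.14 for miR-99a.

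**Figure D2:**
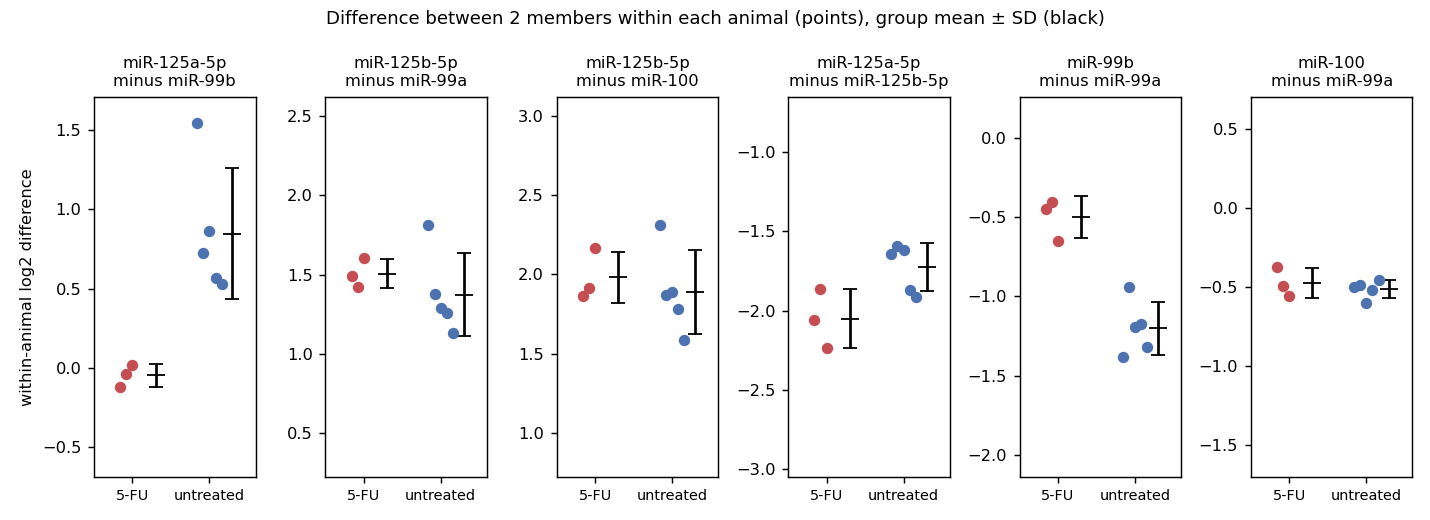
Within-animal log2 difference (vertical axis) for the 6 pairs of miRNAs, with 5-FU animals left of untreated animals and black marks for the mean ± SD. For miR-125a-5p minus miR-99b and for miR-99b minus miR-99a the groups do not overlap, with shifts of -0.89 and 0.70, and for the other 4 pairs they do. How often groups lie apart for other probe pairs was not computed.

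The changes of single miRNAs depended on how arrays were set to a common scale and on whether normalized or raw values were used. With equal totals per array, miR-125a-5p changed by -0.38 from normalized values and by -0.01 from raw values. Across all tested probes the median change was -0.16 on the normalized values, -0.05 with equal raw totals, -0.00 after quantile normalization and 0.38 with arrays centred on the median of probes above the floor. Probes called higher and lower numbered 59 and 95 on the normalized values, 27 and 30 with equal raw totals, 48 and 46 after quantile normalization, 11 and 9 with control-bead scaling, and 143 and 48 with median centring. Against the median of all probes on each scale, miR-99b was higher by 1.03 with equal raw totals, 0.99 after quantile normalization, 1.10 with control-bead scaling and 0.64 with median centring. Its change passed the test with equal raw totals, quantile normalization and median centring, and had limma adjusted p = 0.0785 with control-bead scaling. Of all probes tested, 50.4% were called with median centring and 6.04% with control-bead scaling.

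miR-125a-5p against the same medians was 0.05, -0.08, 0.11 and -0.25 on those 4 scales, and passed the test on none of them. It did pass when the normalized values were rescaled to equal totals, with a change of -0.38 (limma adjusted p = 0.00410). That rescaling moved miR-125b-5p to -0.05, miR-99a to -0.18 and miR-100 to -0.15, none of them called. miR-125b-5p and miR-99a passed the test on no scale. Their changes were negative on the normalized values and positive on the raw and median-centred scales with both batches. On batch 1 arrays alone with equal raw totals they were -0.06 and -0.13. miR-99b was the 1 miRNA of the 5 whose change had the same sign in all 8 settings of the plot of changes by scaling, from 0.38 to 1.12.

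**Figure D3:**
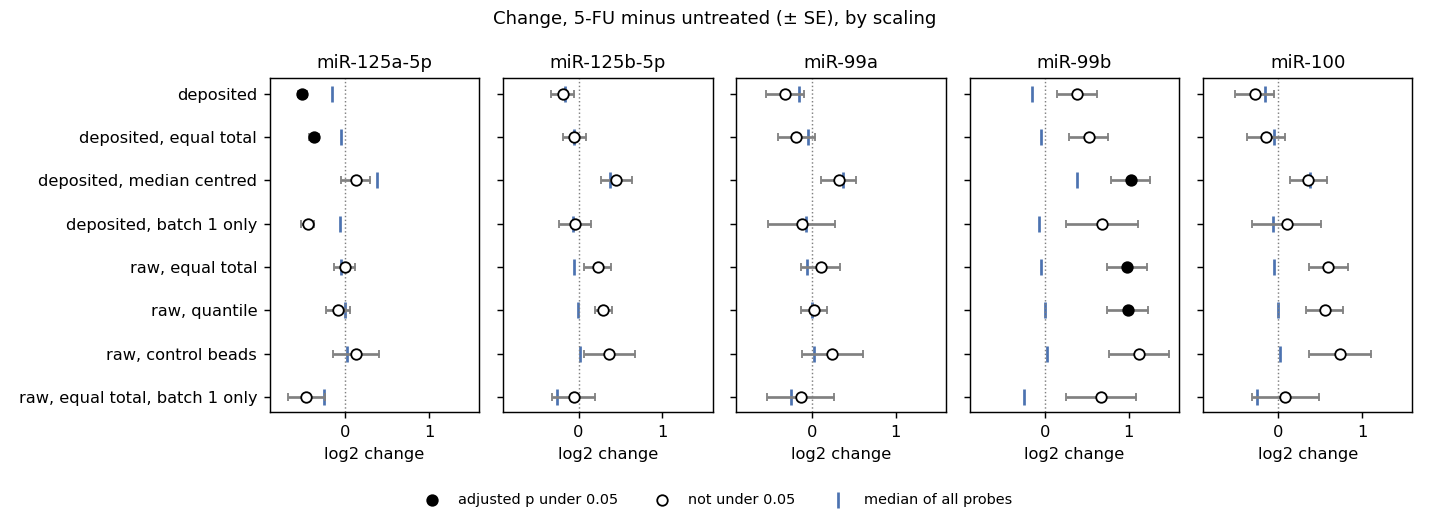
Log2 change after 5-FU (± SE) of the 5 miRNAs under 8 settings that differ in values (normalized or raw), scaling or batch. Filled points have a limma adjusted p under 0.05, and blue ticks give the median of all probes tested. miR-99b lies above 0 in all 8 settings, from 0.38 to 1.12, and miR-125a-5p runs from -0.51 on the normalized values to 0.13 with control-bead or median scaling.

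None of the 3 let-7 miRNAs of the clusters passed the test on the normalized values with the arrays of 5-FU animal 1 averaged. With median centring let-7a at 0.80 and let-7e at 0.59 were called higher (limma adjusted p = 0.0417 and 0.0273), beside 50.4% of all probes. let-7e, from the hairpin between Mir99b and Mir125a, averaged 6.89 ± 0.27 in 5-FU marrow and changed by -0.05 (SE 0.24, limma adjusted p = 0.864), with overlapping groups. With raw values it was 0.90 higher at equal totals (limma adjusted p = 0.0651) and 1.07 higher after quantile normalization (limma adjusted p = 0.0102), beside 21.7% of probes called on that scale. Within batch 1 and equal raw totals it was -0.26 (limma adjusted p = 0.767).

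let-7c had log2 signals of 12.88, 12.86 and 12.71 in 5-FU animals 1 to 3, against 12.98, 13.12, 12.90, 12.99 and 13.13 in untreated animals 1 to 5. The groups did not overlap, as was so in either direction for 49.9% of the probes tested. The change of let-7c, -0.21 (SE 0.07), missed the threshold (limma adjusted p = 0.0504). With the batch 2 array alone for 5-FU animal 1 the change was -0.30 and passed the test (limma adjusted p = 0.0171). The sign turned with batch as a term, to 0.12 (limma adjusted p = 0.662), and with equal raw totals, to 0.17 (limma adjusted p = 0.384). let-7a changed by 0.16 (SE 0.12, limma adjusted p = 0.326). let-7a and let-7c are also encoded outside these clusters, so their signals are not those of the clusters alone.

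miR-351, an X-linked mouse miRNA with the miR-125 seed, was lower after 5-FU on every scale tried. It had log2 signals of 5.95, 5.33 and 5.68 in 5-FU animals 1 to 3, against 8.31, 7.70, 8.56, 8.25 and 8.31 in untreated animals 1 to 5. The groups lay far apart, and miR-351 fell by 2.58 on the log2 scale (SE 0.22, limma adjusted p = 0.000488). On the raw scales its changes by limma were -1.82 with equal totals, -1.69 after quantile normalization and -1.68 with control-bead scaling, and it passed the test on each, as it did with batch as a term (-2.14, limma adjusted p = 0.0123).

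A list of 9 other miRNAs known from stem and progenitor cells had 8 members on the array, of which 3 were higher and 4 lower on the normalized values, with a median change of -0.13. Over all tested probes 15.6% were higher and 25.1% lower. miR-126-5p, from the hairpin in the endothelial and stem cell gene Egfl7, was higher by 1.61 and its partner arm miR-126-3p by 0.90 (limma adjusted p = 0.000279 and 0.00561). The Hox cluster miRNA miR-196a was higher by 1.41, whereas miR-196b was lower, with a change of -0.79 (limma adjusted p = 0.00948 and 0.00598). miR-10a and miR-10b, also from Hox clusters, changed by -0.91 and -1.18 (limma adjusted p = 0.00312 and 0.0119), and miR-130a by -0.55 (limma adjusted p = 0.0386). miR-155 did not pass on the normalized values, at 0.29 (limma adjusted p = 0.387), but was called higher after quantile normalization, at 0.69 (limma adjusted p = 0.00359), and with median centring, at 0.92 (limma adjusted p = 0.000919). With equal raw totals, where 17.3% of all probes were called, 3 were called higher, again both miR-126 arms and miR-196a, and miR-196b alone was lower, with a change of -0.59 (limma adjusted p = 0.0359). There miR-10a changed by -0.23, and miR-10b and miR-130a turned to 0.16 and 0.05, with no call. With batch as a term, where 9.76% of all probes were called, miR-126-5p was the 1 member called, at 1.51 (limma adjusted p = 0.00762).

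Markers of other cells moved with treatment in the same arrays. The 4 stromal markers summed to 3256 to 3981 units of fluorescence in 5-FU marrow and 1444 to 2584 in untreated marrow, with miR-143 and miR-145 called higher by limma, 2 of 4, and all 4 above the floor in every animal. The 3 skeletal muscle markers (miR-1, miR-133b and miR-206) summed to 12797 to 13692 in 5-FU marrow and 4807 to 9663 in untreated marrow, and 3 of 3 were called higher, beside 15.6% of all probes. With equal raw totals, where 17.3% of all probes were called, the calls in both lists were again 2 of 4 and 3 of 3. With batch as a term, where 9.76% were called, they were 1 of 4 and 0 of 3, although each change stayed positive. The lymphocyte markers miR-150 and miR-181a were both called lower, beside 25.1% of all probes. Their sums were 4244 to 4897 in 5-FU marrow and 6597 to 7995 in untreated marrow. With equal raw totals miR-181a was called lower, at -0.86, and miR-150 turned to 0.09. With batch as a term miR-181a was at -0.80 and miR-150 at 0.04.

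Of the erythroid markers, miR-451 was lower, with a change of -0.70 (limma adjusted p = 0.0132), and miR-144 changed by -0.12 (limma adjusted p = 0.591). miR-451 was at -0.13 with equal raw totals and at -0.006 with batch as a term, and was called in neither. The granulocyte and monocyte marker miR-223 changed by -0.16 (limma adjusted p = 0.522) and the marker of all blood cells miR-142-3p by 0.34 (limma adjusted p = 0.229). The endothelial marker was miR-126-3p, given above. No defining marker was at the floor in any animal, and the part of these cells in the changes of the 5 miRNAs was not tested.

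**Figure D4:**
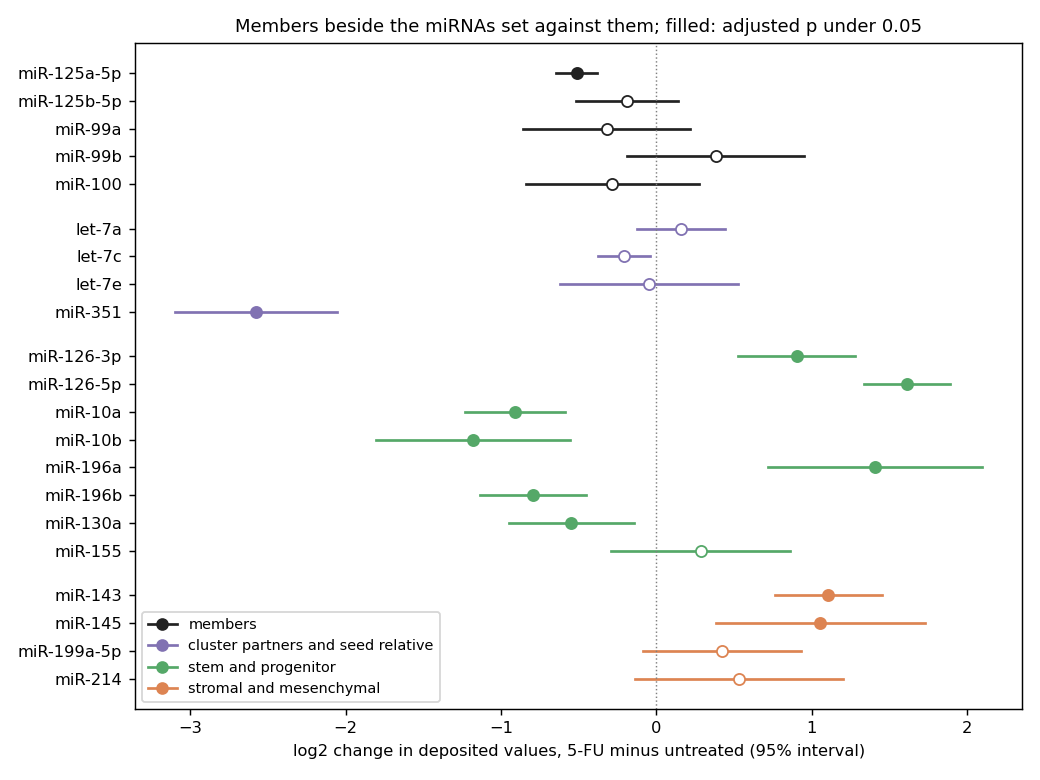
Log2 change after 5-FU on the normalized values, with 95% intervals, of the 5 miRNAs, their cluster partners and miR-351. The listed stem cell miRNAs and the stromal and mesenchymal markers are also shown. miR-125a-5p at -0.51 and miR-351 at -2.58 lie below 0 with intervals that leave it out, whereas the intervals of miR-125b-5p, miR-99a, miR-99b and miR-100 hold 0.

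The 3 probes most like each miRNA over the 8 animals were taken by Pearson r among 157 mouse-named probes above the floor in every animal, as a description of points that share an array and its scaling. For miR-99a the closest was miR-100 (r = 0.981, n = 8 animals), followed by miR-200b (r = 0.902) and miR-193 (r = 0.852). For miR-100 they were miR-99a, miR-200b (r = 0.876) and miR-125b-5p (r = 0.789). miR-125b-5p was closest to miR-193 (r = 0.835), miR-99a (r = 0.814) and miR-100.

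miR-99b was most like miR-152 (r = 0.952), miR-140 (r = 0.899) and miR-335-5p (r = 0.898), and none of the other 4 miRNAs was among its 3. miR-125a-5p was most like miR-351 (r = 0.998), miR-181c (r = 0.994) and miR-106a (r = 0.993), all of which were lower after 5-FU, by limma with adjusted p of 0.000488, 0.00129 and 0.000746. Since the groups do not overlap for miR-125a-5p, its coefficients mainly restate the gap between the groups.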

How the data were processed

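RNA from 8 mice was profiled on 9 bead arrays. Per the series design text, the authors normalized the deposited log2 values assuming equal total miRNA signal, and the value 3 is a floor. Deposited totals lay between 355655 and 362039 on batch 2 arrays, however, against 401283 to 402143 on batch 1 arrays. The deposited raw table holds fluorescence intensity, and the authors' p-value and false discovery rate columns are deposited beside the normalized values. The sources used here name no upstream software. Replicates are separate animals. Since the labels do not count a second batch as a replicate, 5-FU animal 1 entered once, as the mean of its 2 arrays. Only the fit with batch as a term took these 2 arrays separately. The number of arrays limits the precision.

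After 12 control beads were left out, the 379 of 582 probes that exceeded the floor in 3 or more animals were tested with limma 3.58.1 (R 4.3.3, lmFit and eBayes, two-sided, Benjamini-Hochberg, threshold 0.05). Within-animal differences were tested by exact permutation (scipy 1.17.1). The fit was also run on simulated data without batches, which cannot show how batch affects these results. Alternatives changed the array of animal 1, batch, test, moderation, scaling, filter, animals and pairing. Raw values were scaled after subtracting the higher water well.

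Named miRNAs are the 5 members, their cluster partners, miR-351, listed stem cell and marker miRNAs and the 3 probes most like each member. Members and lists were chosen with earlier results of these data known. Passenger arms and miR-29a matched no probe name and were not analysed here. RefSeq names and sequences are from GRCm38.p6.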

Additional observations from a re-analysis of the deposited data

How the results depend on the processing

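Each change of the 5 miRNAs was recomputed under 25 alternatives and each within-animal difference under 14. Calls over all probes numbered 154, and 102 with the batch 1 array alone for 5-FU animal 1, 37 with batch as a term, 12 on batch 1 arrays alone, 57 with equal raw totals (62 per bead pool, 17 on batch 1 alone), 94 after quantile normalization, 20 with control-bead scaling, 88 among probes above log2 7, and 95 to 168 leaving out each animal (95 without 5-FU animal 2, 97 without 5-FU animal 3). The equal totals per bead pool, the raw batch 1 values, the batch 1 within-animal values and the fit of animals 1 to 3 without the block were chosen after seeing the data. On batch 1 arrays the lone treated sample is assumed to vary like the untreated ones. miR-125a-5p kept its call in 18 alternatives, with -0.55 to -0.48 leaving out each animal. It lost it on batch 1 arrays alone (-0.45, limma adjusted p = 0.0608), with equal raw totals (-0.0070, and -0.0062 per bead pool; -0.46 on batch 1 alone) and after quantile normalization (-0.088), and turned positive with control-bead scaling (0.13) and median centring (0.13). With equal raw totals, quantile normalization, control-bead scaling, median centring and totals per bead pool, in that order, miR-125b-5p turned to 0.23, 0.30, 0.37, 0.45 and 0.23, miR-99a to 0.11, 0.025, 0.25, 0.32 and 0.11, and miR-100 to 0.60, 0.55, 0.74, 0.36 and 0.60. miR-100 also turned to 0.10 with batch as a term and on batch 1 arrays, and to 0.083 on batch 1 with equal raw totals. miR-99b gained a call with equal raw totals (0.98), quantile normalization (0.99), median centring (1.02) and totals per bead pool (0.98). Leaving out each animal gave -0.28 to -0.06 for miR-125b-5p, -0.45 to -0.21 for miR-99a, 0.21 to 0.46 for miR-99b and -0.41 to -0.16 for miR-100. miR-125b-5p minus miR-100 turned to -0.37 with equal raw totals and with control-bead scaling, -0.26 after quantile normalization and -0.14 on batch 1 arrays. miR-100 minus miR-99a ran from -0.013 to 0.080 leaving out each animal, negative without 5-FU animal 1. The cause of these shifts was not tested. Whether animal numbers pair the groups was not settled. Same-numbered correlations were 0.05, 0.35 and 0.17, and differently numbered ones ran from -0.25 to 0.12, while the raw columns number untreated animals differently. With the number as a replicate block over animals 1 to 3 the calls were 52, and 65 without the block in the same animals, and miR-125a-5p was at -0.51 (limma adjusted p = 0.0473).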
